A study of Homo sapiens with 6 samples.

Results

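Interferon-stimulated genes were examined in U2OS, a human osteosarcoma cell line, after knockout of MBTD1, a reader of methylated histone tails and a subunit of the TIP60/NuA4 acetyltransferase complex. The set holds 38 genes taken by symbol: interferon-induced antiviral genes, the IFITM family, and the immunoproteasome subunits with the peptide transporter TAP1. Each symbol matched 1 row of the deposited table, so the set is 38 of 34602 measured genes. Of these, 20 were detected on at least 3 of the 6 arrays and could be tested, and 18 did not reach that limit.

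Total RNA came from 6 clones, each measured on 1 Illumina bead array. The labels assign 3 of them to an MBTD1 knockout made with CRISPR/Cas9 and 3 to a control. All were grown untreated in DMEM with 10% serum, so no interferon was added to any of them. The sample titles call the controls "control KO", whereas the series' design names wild-type cells as the comparison, and their derivation is not described further. A p-value sets the difference between the groups against the spread among clones within a group. The difference itself may therefore partly be clonal.

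Cells sense viral nucleic acid through receptors such as RIG-I and MDA5 and answer by secreting interferons. Type I interferons bind IFNAR1 and IFNAR2, and the kinases JAK1 and TYK2 then activate transcription factors, STAT2 among them. STAT2 and IRF9 are subunits of the factor ISGF3, which binds interferon-stimulated response elements (ISRE) in the promoters of many target genes. Interferon gamma acts through gamma-activated sites (GAS). Many target genes also have a basal level without added interferon.

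RefSeq promoter windows (GRCh38.p14), 250 bases before to 50 bases after the gene's start, were on hand for 30 of the 38 genes. The ISRE core was searched as 2 copies of GAAA with any 2 bases between them, and the GAS as TTCNNNGAA, on both strands; matches could overlap each other, and a GAS match can share bases with an ISRE match. The ISRE core stood in 17 of the 30 windows (56.7%), against 996 of 27305 windows of the same length over all genes (3.65%). The GAS motif stood in 7 of the 30 (23.3%), against 7.88% of all windows. A match describes these letters only. The stretches below run 5′ to 3′ on the gene's own strand, with ISRE core matches in capitals. They are shown because IFITM3, ISG15 and ISG20 were among the members with the largest differences. MX1 is shown because it, like ISG15 and ISG20, passed only without adjustment, whereas IFITM3 passed with it. IFIT1 and TAP1 carry the same core with smaller differences, and IFITM1 and IFI27 carry it but could not be tested.
IFITM3, chr11:320861-320937, minus strand: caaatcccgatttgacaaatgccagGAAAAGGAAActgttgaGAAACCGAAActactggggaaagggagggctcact
IFITM1, chr11:313975-314068, plus strand: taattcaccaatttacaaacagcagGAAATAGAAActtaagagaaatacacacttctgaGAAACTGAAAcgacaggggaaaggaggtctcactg
ISG15, chr1:1013359-1013424, plus strand: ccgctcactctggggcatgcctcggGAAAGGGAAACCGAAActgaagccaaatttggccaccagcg
ISG20, chr15:88638922-88638981, plus strand: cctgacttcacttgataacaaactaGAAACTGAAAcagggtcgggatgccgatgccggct
MX1, chr21:41420544-41420603, plus strand: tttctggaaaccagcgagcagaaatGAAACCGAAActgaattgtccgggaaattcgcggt
IFIT1, chr10:89392482-89392554, plus strand: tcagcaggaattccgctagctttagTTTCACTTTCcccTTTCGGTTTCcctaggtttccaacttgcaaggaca
IFI27, chr14:94110603-94110675, plus strand: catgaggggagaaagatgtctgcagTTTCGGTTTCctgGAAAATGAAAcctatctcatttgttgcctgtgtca
TAP1, chr6:32853798-32853863, minus strand: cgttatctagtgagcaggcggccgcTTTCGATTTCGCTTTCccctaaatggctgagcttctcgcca

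The windows of IFITM1 and IFITM3 shared 197 of 329 aligned positions (59.9%). The window of IFI27L2, whose difference was the largest of the set, and that of PSMB8 held no match to the ISRE core. Among the 18 tested members with a window, the median difference was 0.23 on the log2 scale for the 11 with an ISRE core, and 0.24 for the 7 without one.

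OAS1, OAS2, OAS3, MX2 and IFI27 lay near background in every clone. Of the 38 members, 14 were above background (detection p under 0.05) on all 6 arrays, 14 on 1 to 5 arrays, and 10 on none. The 10 were IRF7, IFITM1, MX2, OAS1, OAS2, OAS3, HERC5, USP18, IFI27 and IFI35. Their normalized log2 intensities lay between 4.11 and 4.69 over all clones. The number of members detected was 18, 20 and 24 in controls 1 to 3 and 17, 21 and 22 in knockouts 1 to 3, so the groups overlapped. In rows that average several probes the detection p is an average as well, so a gene can be bright and still miss the limit: IFIT1 measured 5.59 to 6.60 and was detected on 4 of 6 arrays.

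Among the knockouts 2 members rose, IFI27L2 and IFITM3, and 0 fell, out of 20 tested (limma, Benjamini-Hochberg adjusted p under 0.05 over all 13145 tested genes). Over all tested genes 158 rose (1.2%) and 49 fell (0.373%); cyclic loess called 249 higher and 39 lower, and scaling to a common median 553 and 32. At an unadjusted p under 0.05, 8 members were higher and 0 lower, against 10.1% and 10.3% of all tested genes. All 3 knockout clones lay above all 3 control clones in 7 members and below them in 0, against 12.2% and 13.7% of all tested genes. The difference was above 0 in 16 members and below 0 in 4, against 46.2% above 0 among all tested genes. The members' median difference was 0.23, beside -0.02 over all tested genes. The 8 members with an unadjusted p under 0.05 were IFI27L2, IFITM3, PSMB8, IFITM2, ISG20, ISG15, MX1 and IRF9.

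**Figure D1:**
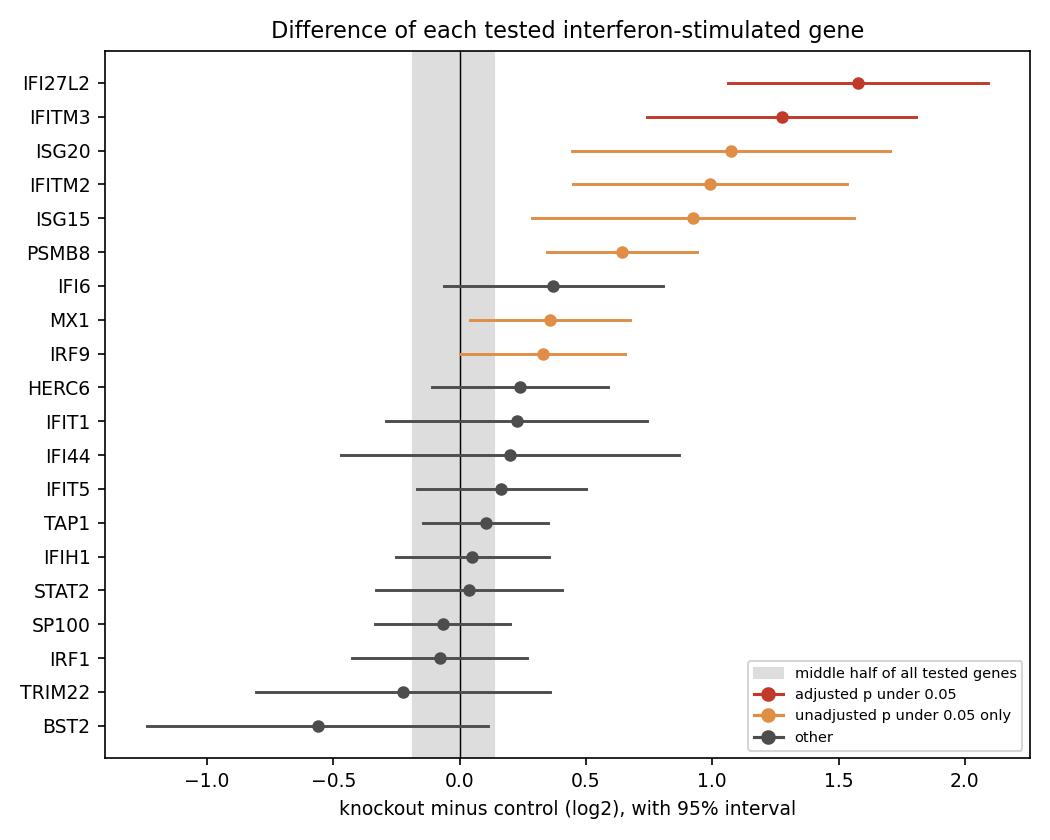
Difference of each of the 20 tested interferon-stimulated genes, knockout minus control on the log2 scale (points), with its 95% interval from limma (lines); grey marks the lower to the upper quartile of all 13145 tested genes (-0.18 to 0.14). IFI27L2 and IFITM3, in red, pass the adjusted threshold, and the orange genes pass only without adjustment.

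The IFITM proteins sit in cell and endosomal membranes and hinder the fusion of enveloped viruses. IFITM3 measured 7.79, 6.93 and 7.36 in controls 1 to 3 and 8.42, 8.47 and 9.01 in knockouts 1 to 3 (normalized log2 intensity). Every knockout clone lay above every control clone, and knockout 3 was the highest. IFITM3 rose by 1.28 with a standard error of 0.23, a 2.42-fold change (95% interval of the log2 difference 0.74 to 1.81; limma adjusted p = 0.0410). The standard error over beads was 2.95% to 4.63% of the intensity on each array. The call was lost without control 2, control 3, knockout 2 or knockout 3 (limma adjusted p = 0.0983, 0.182, 0.0834 and 0.113). The difference in these fits was 1.06, 1.28, 1.36 and 1.09. Over all tested genes, 50, 0, 50 and 51 passed in them, against 207 in the main fit. With the mean level of short genes per array (given below) in the model the difference was 0.65 (limma adjusted p = 0.968). In that model 0 of 13145 tested genes passed, and the level itself separated the groups.

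IFITM2 is a close paralog of IFITM3. It measured 9.20, 8.16 and 8.82 in the controls and 9.54, 9.73 and 9.89 in the knockouts. The groups did not overlap, although control 1 lay nearer to knockout 1 than to control 2. The difference was 0.99 with a standard error of 0.24 and did not pass (limma adjusted p = 0.0695). It passed after scaling to a common median (0.0177), with a stricter detection filter (0.0492) and without control 1 (0.0227), 3 of 17 alternatives. Leaving out control 2 gave 0.71 (limma adjusted p = 0.140), and with the level of short genes in the model the difference was 0.22 (0.972). IFITM1, the family member found mostly at the cell surface, was not detected and measured 4.14 to 4.23. IFITM2 and IFITM3 transcripts are alike, and probe sequences were not used here, so how far the signal of one contains the other was not tested.

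BST2, also called tetherin, holds budding virus at the cell membrane and had the most negative difference of the set. It measured 5.28, 4.80 and 5.45 in the controls and 4.25, 5.34 and 4.25 in the knockouts. Knockout 1 and knockout 3 lay below every control, and knockout 2 lay within the range of the controls. BST2 was above background in 3 of 3 control clones and 1 of 3 knockout clones. The difference of -0.56 had a standard error of 0.30 (95% interval -1.24 to 0.11; limma adjusted p = 0.329). RSAD2, or viperin, an enzyme that makes a chain-terminating nucleotide, was detected in knockout 3 alone, at 4.63.

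**Figure D2:**
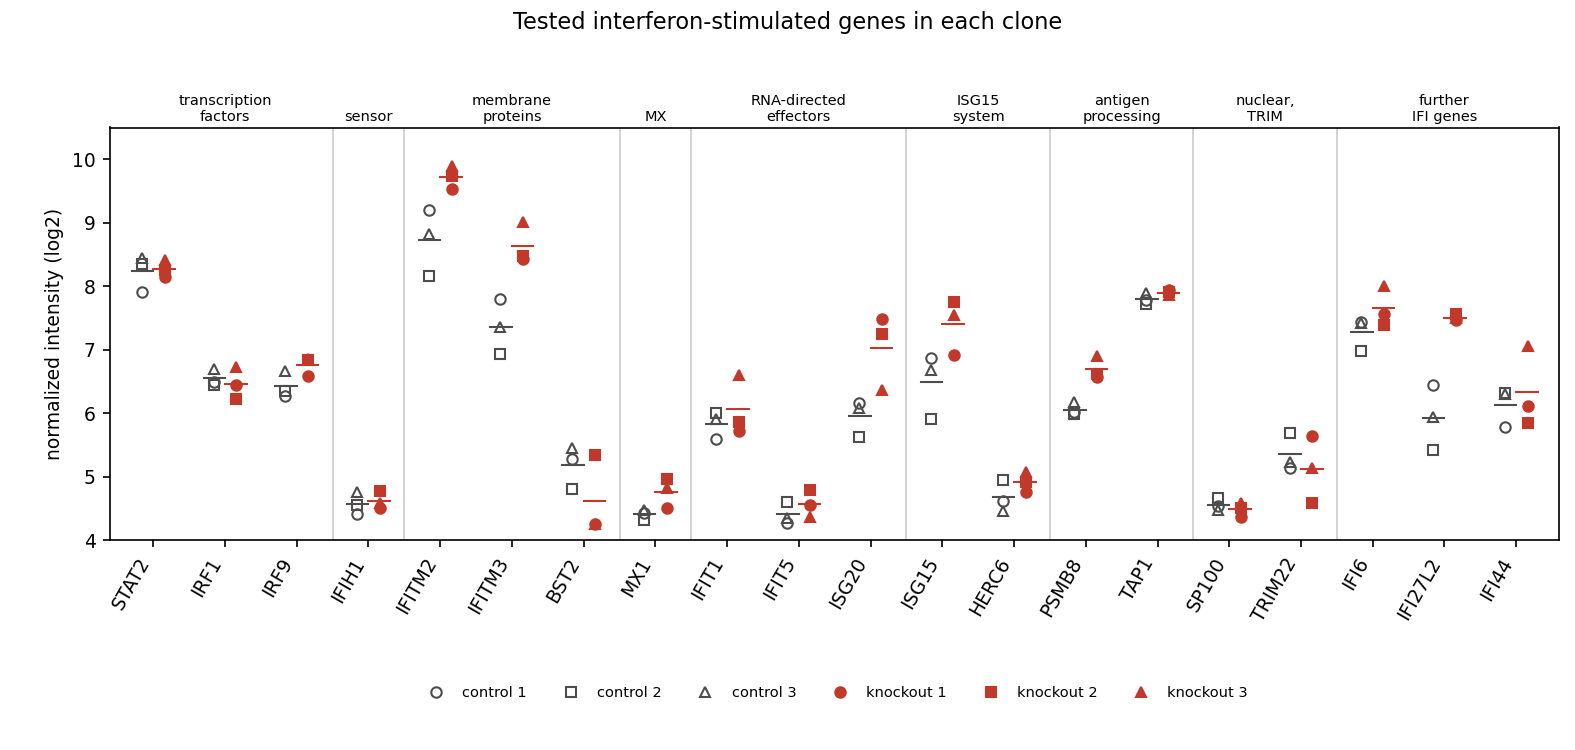
Normalized log2 intensity (vertical axis) of the 20 tested members in each clone, with controls as open and knockouts as filled symbols, the shape giving the clone number and short lines the group means. Knockout and control clones are apart in IFITM2, IFITM3, MX1, ISG20, ISG15, PSMB8 and IFI27L2; levels of different genes are not comparable on this scale.

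Of 3 tested members that act on viral RNA, 0 passed by limma (1 at an unadjusted p under 0.05). ISG20, an exonuclease that degrades single-stranded RNA, measured 6.17, 5.62 and 6.07 in the controls and 7.48, 7.25 and 6.36 in the knockouts. Here knockout 3 was the lowest of its group, the reverse of its place in IFITM3. The difference of 1.07 had a standard error of 0.28 (limma adjusted p = 0.0812), and without knockout 3 it was 1.41 (0.0411). Leaving out any other clone gave 0.85 to 1.18, none past the threshold. It was 0.60 (0.968) with the level of short genes in the model, and 0.22 (0.281) with the background fitted on all rows. IFIT1, which binds RNA lacking the cap methylation of the host, measured 5.59, 6.01 and 5.91 in the controls and 5.73, 5.85 and 6.60 in the knockouts. Its difference of 0.23 had a 95% interval from -0.29 to 0.74, with knockout 3 above all other clones. IFIT5 differed by 0.16 (limma adjusted p = 0.578). IFIT2, IFIT3, OAS1, OAS2, OAS3 and OASL did not pass the detection filter; the OAS proteins make the 2'-5' oligoadenylates that activate RNase L.

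MX1, a dynamin-like GTPase that traps viral nucleocapsids, measured 4.42, 4.32 and 4.47 in the controls and 4.51, 4.96 and 4.82 in the knockouts. It was above background in 1 of 3 control clones and in all 3 knockout clones. The difference was 0.36 with a standard error of 0.14 and did not pass (limma adjusted p = 0.192). Its relative MX2 was not detected. Of the RNA sensors, IFIH1, which encodes MDA5, differed by 0.05 (95% interval -0.25 to 0.35). DDX58, which encodes RIG-I, was detected in 2 control clones and 0 knockout clones and was not tested.

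ISG15 is a ubiquitin-like protein that is joined to other proteins by a cascade ending in HERC5 and removed by USP18. It measured 6.87, 5.90 and 6.69 in the controls and 6.92, 7.75 and 7.55 in the knockouts. The groups did not overlap, but knockout 1 exceeded control 1 by little. The difference of 0.92 had a standard error of 0.28 (95% interval 0.29 to 1.56; limma adjusted p = 0.119). With the level of short genes in the model it was 0.23 (0.979). HERC6 differed by 0.24 (limma adjusted p = 0.425), and HERC5 and USP18 were not detected.

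Of the genes of antigen processing, PSMB8 came close to the threshold and TAP1 did not. PSMB8 encodes a catalytic subunit of the immunoproteasome, which cuts proteins into peptides for display on MHC class I. It measured 6.01, 5.98 and 6.17 in the controls and 6.56, 6.62 and 6.91 in the knockouts. The groups were well apart, with SDs of 0.10 and 0.18 (n = 3 each). The difference of 0.64 had a standard error of 0.13 and a 95% interval of 0.35 to 0.94, just short of the threshold (limma adjusted p = 0.0520). It passed with cyclic loess (0.0444), after scaling to a common median (0.0305) and with a stricter detection filter (0.0409), 3 of 17 alternatives. The difference was 0.61 (0.968) with the level of short genes in the model and 0.10 (0.152) with the background fitted on all rows.

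PSMB9, the partner of PSMB8 in the immunoproteasome, was above background in 0 control clones and 2 knockout clones and could not be tested. It measured 4.33, 4.35 and 4.52 in the controls and 4.91, 4.89 and 5.07 in the knockouts. Its promoter window overlaps that of TAP1, which is read from the opposite strand. TAP1, a subunit of the peptide transporter of the endoplasmic reticulum, measured 7.71 to 7.89 in the controls and 7.86 to 7.93 in the knockouts. Its difference of 0.10 had a 95% interval of -0.14 to 0.35.

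None of the transcription factors in the set passed the test. STAT2 differed by 0.04 (95% interval -0.33 to 0.40) and IRF1 by -0.08 (-0.43 to 0.27). IRF9, the DNA-binding partner of STAT2, measured 6.28, 6.34 and 6.67 in the controls and 6.58, 6.84 and 6.86 in the knockouts. Knockout 1 lay below control 3, so the groups overlapped, and the difference of 0.33 did not pass (limma adjusted p = 0.243). IRF7 was not detected. Transcript levels say nothing about whether these factors were phosphorylated or bound to DNA.

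IFI27L2, a small relative of IFI27, had the largest difference of the set. It measured 6.44, 5.41 and 5.93 in the controls and 7.46, 7.56 and 7.49 in the knockouts. The groups did not overlap, and the SD was 0.05 among knockouts and 0.52 among controls. IFI27L2 rose by 1.58 with a standard error of 0.23, a 2.98-fold change (95% interval 1.06 to 2.09; limma adjusted p = 0.0195). Leaving out control 3, knockout 2 or knockout 3 gave limma adjusted p = 0.124, 0.0595 and 0.0747, and with the level of short genes in the model the difference was 0.82 (0.835). Its better-known relative IFI27, one of the most inducible interferon targets, was not detected in any clone.

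The other IFI genes did not pass. IFI6, an inhibitor of apoptosis at the mitochondrion, measured 7.44, 6.98 and 7.42 in the controls and 7.56, 7.39 and 8.01 in the knockouts (difference 0.37; limma adjusted p = 0.316). IFI44 measured 5.78, 6.32 and 6.30 in the controls and 6.11, 5.84 and 7.05 in the knockouts (difference 0.20; limma adjusted p = 0.753). In both genes knockout 3 was the highest clone, by 0.45 and 0.74 over the next. Of the 8 untested members seen on 1 or 2 arrays, DDX58, IFIT2, IFI44L and XAF1 were detected in control clones alone, RSAD2, IFIT3 and PSMB9 in knockout clones alone, and OASL in both. The row of XAF1 averages several probes, and its mean was 4.59 in the controls and 4.68 in the knockouts. Among nuclear proteins, SP100, a component of PML bodies, differed by -0.07, and TRIM22, a restriction factor, by -0.23, with 4.59 in knockout 2 and 5.64 in knockout 1.

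Over the 20 tested members, knockout 3 held the highest value in 9 and knockout 2 in 5, whereas control 2 held the lowest in 9 and control 1 in 6. The members' median deviation from the control mean was 0.14, 0.22 and 0.41 in knockouts 1 to 3 and -0.03, -0.08 and 0.10 in control clones 1 to 3. The medians over all tested genes lay between -0.02 and 0.01 on every array. Control 3 and knockout 1 were thus separated by less than knockout 1 and knockout 3.

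Other genes of the interferon system were read from lists of the same pathway. Of 33 tested interferon-stimulated genes outside the set, 0 rose and 0 fell by limma (0 higher and 2 lower at an unadjusted p under 0.05, against 10.1% and 10.3% of all tested genes), and their median difference was 0.03. The smallest p-values belonged to TDRD7 (-0.53), NT5C3 (-0.48) and PARP14 (0.28), with limma adjusted p = 0.117, 0.127 and 0.348. Of 21 tested receptors, kinases, adaptors and regulators, 0 rose and 0 fell by limma (1 higher and 1 lower without adjustment), with a median of -0.14. SOCS1, a feedback inhibitor of JAK kinases, differed by 0.45 (limma adjusted p = 0.0842). IL28RA, the specific chain of the interferon lambda receptor, differed by -0.56 (0.0929) and JAK1 by -0.28 (0.277). The interferon genes IFNB1, IFNA1, IFNG, IL28A, IL28B and IL29 were not detected in any clone, and IFNE was detected in 1.

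**Figure D3:**
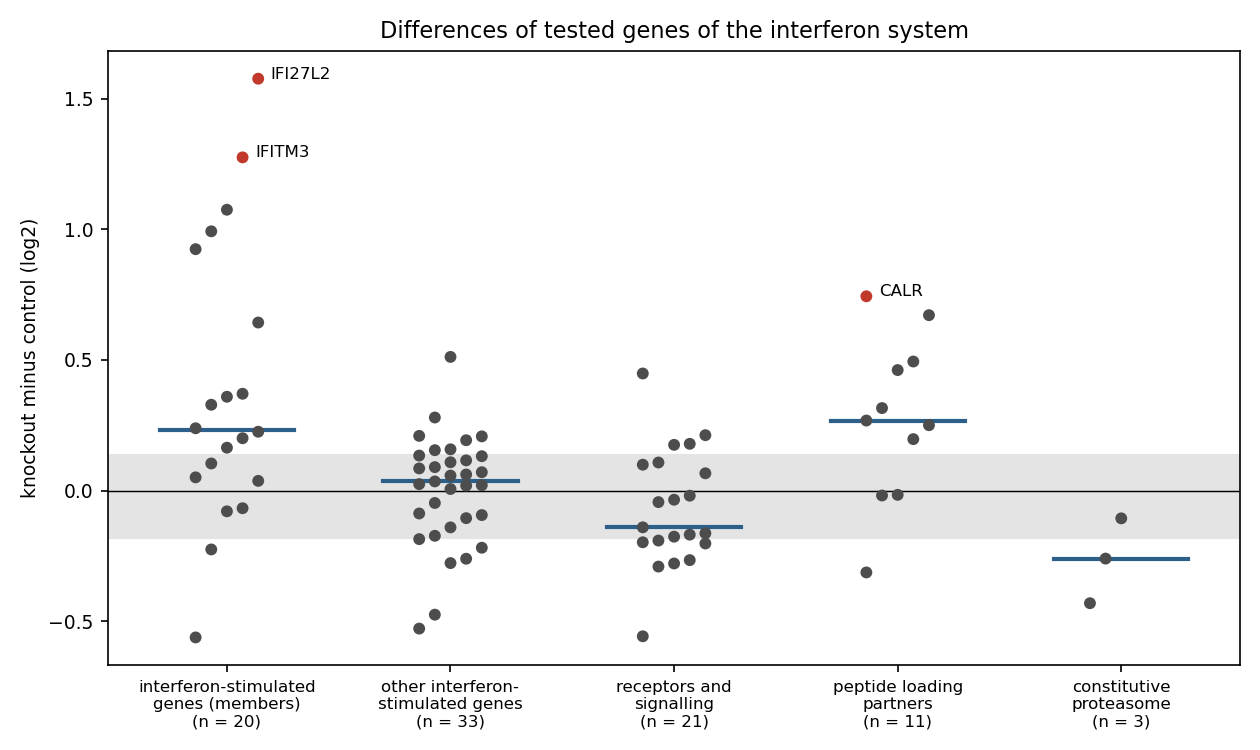
Differences (knockout minus control, log2) of the tested genes of 5 lists; each point is a gene, blue lines are list medians, red points pass the adjusted threshold, and grey marks the lower to the upper quartile of all tested genes. The members (median 0.23) and the peptide loading partners (0.27) lie mostly above 0, and the other interferon-stimulated genes (0.03) lie around it. The partners include ERAP2, which passed the detection filter only through the knockouts. Among the 10 partners detected in both groups the median was 0.26.

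Partners of the immunoproteasome and TAP1 in peptide loading were measured as well. Of 11 tested, 1 rose and 0 fell, against 1.2% and 0.373% of all tested genes, and the median difference was 0.27. Among the 10 that were detected in both groups the median was 0.26, and 5 were higher and 0 lower at an unadjusted p under 0.05, against 10.1% and 10.3% of all tested genes. CALR, which encodes the chaperone calreticulin of the peptide loading complex and is also a target of the unfolded protein response, rose by 0.74 (limma adjusted p = 0.0213). It measured 8.10, 7.91 and 7.98 in the controls and 8.68, 8.75 and 8.79 in the knockouts. PSMB10, the remaining catalytic immunoproteasome subunit, measured 9.60, 8.77 and 9.11 in the controls and 9.85, 9.82 and 9.82 in the knockouts (difference 0.67; limma adjusted p = 0.105). PSME1, a subunit of the proteasome activator PA28, differed by 0.49 (0.0933).

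ERAP2, a peptide-trimming aminopeptidase, was detected in 0 control and 3 knockout clones and passed the detection filter only through the knockout clones. The fitted difference was 0.46, or 1.38-fold (95% interval 0.18 to 0.75; limma adjusted p = 0.0912). The controls were not above background, although their measured values lay above the lowest detected signal. The 1.38-fold is an estimate and not a lower bound. TAP2 differed by 0.20 (0.448) and B2M, the light chain of MHC class I, by -0.02 (0.960). The constitutive proteasome subunits that the immunoproteasome ones replace had negative differences: PSMB5 differed by -0.26, PSMB6 by -0.11 and PSMB7 by -0.43. Of these 3 genes, 0 passed by limma. At an unadjusted p under 0.05, 2 were lower, against 10.3% of all tested genes.

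Of the 6 members with the largest differences, 5 are short genes. By RefSeq gene span, which was known for 84.6% of tested genes and for all 20 members, 9 members were among the shortest 25% of genes (up to 8418.5 bases) and had a median difference of 0.64. The 11 longer members had a median of 0.10, and the 2777 short genes outside the set one of 0.07. Across the 20 members Spearman's rho between span and difference was -0.49, and across all tested genes with a span it was -0.24. These points share the same 6 arrays, and genes are not independent replicates. The mean level of short genes relative to all genes was 0.438, 0.245 and 0.370 in controls 1 to 3 and 0.512, 0.492 and 0.497 in knockouts 1 to 3. IFITM3, IFITM2, ISG15 and IFI27L2 are each under 2 kb long and had their lowest value in control 2, where this score was lowest too. ISG20, MX1 and TAP1 span 20852, 38657 and 8496 bases and lie outside the shortest 25%. They too had their lowest value in control 2, at 5.62, 4.32 and 7.71, so that place was not particular to short members. The score was higher in all 3 knockouts than in any control. A fit that includes it therefore cannot cleanly tell its part in the members' differences from the knockout's, and that part was not tested otherwise. In that fit 0 of 20 members and 0 of 13145 tested genes passed (limma). At an unadjusted p under 0.05 it had 3 members and 598 genes. In that fit the members' median difference was 0.32, with 18 above 0 and 2 below.

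**Figure D4:**
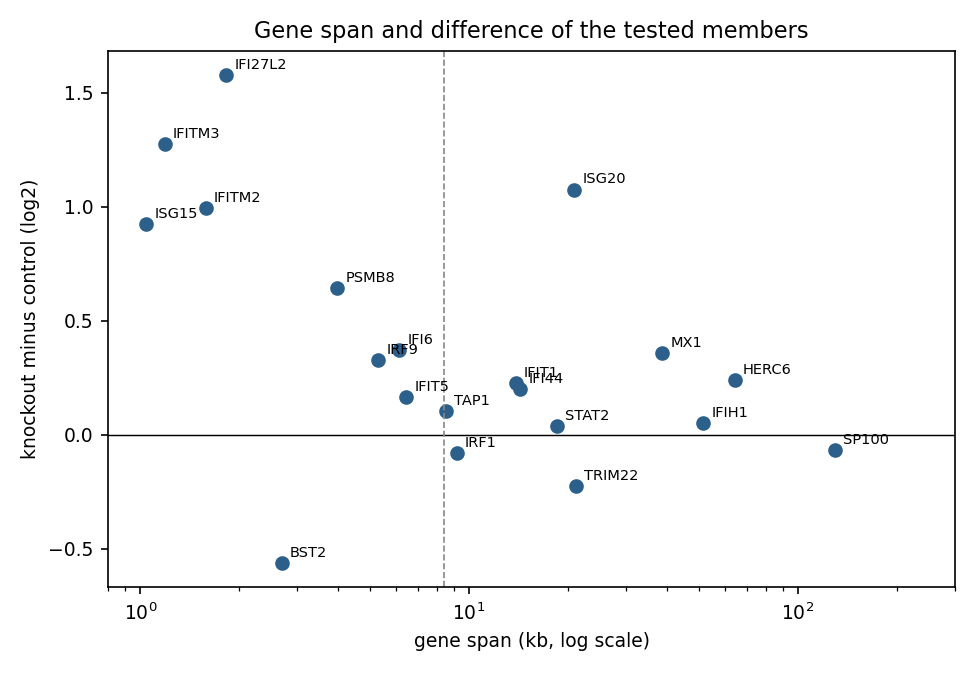
Gene span in kb (log axis) against the difference, knockout minus control in log2, for the 20 tested members; the dashed line bounds the shortest 25% of tested genes. IFI27L2, IFITM3, IFITM2 and ISG15 lie at the left with differences of 0.92 to 1.58, while ISG20 has 1.07 among the longer genes and BST2 -0.56 among the short ones.

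Median intensities of the 6 arrays were 84.7 to 87.2, and 12982 to 13513 rows per array were above background. MBTD1 itself was dim and did not separate the groups, at 5.05 to 5.06 in the controls and 5.17, 4.99 and 4.62 in the knockouts (difference -0.13; exact permutation p = 0.7, 2-sided, smallest possible 0.1). The files do not place its probes relative to the edit, so this is no check of the knockout. Of the markers of mesenchymal and bone-forming cells, VIM, COL1A1 and SPARC were detected on all 6 arrays, RUNX2 on 1 and COL1A2 on none. VIM measured 11.61 to 12.15 in the controls and 11.04 to 11.18 in the knockouts (difference -0.71, limma adjusted p = 0.0564). COL1A1 went the other way, by 0.35 (limma adjusted p = 0.364), and SPARC differed by -0.24 (0.471), so these markers had no common direction. Of the epithelial markers, EPCAM was detected on all 6 arrays (difference -0.30; limma adjusted p = 0.261), without overlap between the groups, and CDH1 and KRT19 on none. The part of these markers in the members' differences was not tested. The blood cell markers PTPRC, CD74, CD3E and CD14 were not detected on any array and LYZ was on 4; the endothelial markers PECAM1 and CDH5 were not detected and VWF was on 3. In bulk RNA such as this, fewer cells expressing a gene and less RNA per cell cannot be told apart.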

How the data were processed

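The authors deposited linear mean bead intensities per gene, without background subtraction or normalization, with a detection p-value, a bead standard error (a signal value) and a bead number, per the file headers. Fractional bead numbers in 8380 of 34694 rows show that probes of a gene were averaged. The deposited log2 values are those intensities after log2 and quantile normalization, to within 4.99e-09. The submitters' processing notes name lumi and limma without versions; no source used here gives the genome build. All columns were matched to clones through the sample numbers of the labels; 92 control spots were left out.

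Background was corrected with limma's normexp model (limma 3.58.1, R 4.3.3), fitted on 27408 rows (79.0%) with a detection p on the grid of single probes (steps of 1/770, tolerance 0.001 of a step) on all arrays; values plus an offset of 16 were taken to log2 and quantile normalized. Fitted on all rows, the background SD was 114 to 164 units instead of 3.08 to 3.77. Genes with a detection p under 0.05 on at least 3 arrays were tested with lmFit and eBayes, 2-sided, without covariates, and Benjamini-Hochberg adjustment over 13145 genes. The fit was tested on simulated data. The precision is limited by 3 arrays per group. The members and the lists of pathway genes were chosen with earlier results of these data known. Members with an unadjusted p under 0.05 are given with values in every clone, as are others that lead their role; of each pathway list, the genes past the threshold or, with under 3, the 3 of lowest p are named, and PSMB10, B2M and TAP2 always; 1 further gene is not reported here. Alternatives covered background, offset, normalization, the deposited log2 values, detection filters, a variance trend, a replicate block, a short-gene covariate and leaving out each array.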

Additional observations from a re-analysis of the deposited data

How the results depend on the processing

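Counts of members past the threshold depended on the setting, and in each of the 17 alternatives the members' median difference was positive. In the main fit 2 of 20 members and 207 of 13145 genes passed. With the background fitted on all rows this became 0 and 0 (6 members and 2260 genes at an unadjusted p under 0.05 in limma). It became 1 and 64 without background correction or with the deposited log2 values, and 4 and 585 after scaling to a common median. Without a filter it was 0 and 4, with 10 of 38 members and 4082 of 34602 genes passing unadjusted. Detection p under 0.01 on all 6 arrays gave 4 and 361. An offset of 50 gave 0 and 61 (7 members and 2651 genes unadjusted). With the short-gene score in the model it was 0 and 0 (3 members and 598 genes unadjusted). The median difference of 0.23 became 0.038 with the background fitted on all rows, 0.11 without correction or with the deposited log2 values, 0.070 without a filter, where 38 members enter, 0.51 with the stricter filter, where 12 do, and 0.32 with the short-gene score in the model (18 members above 0, 2 below). Leaving out 1 array gave 0 to 3 members, 0 to 578 genes and a median of 0.16 to 0.35. Without control 3, 0 members passed (7 members and 1919 genes unadjusted). Without knockout 2, 0 members passed (8 members and 2362 genes unadjusted). IFITM3 passed in 6 of 17 alternatives (limma adjusted p 0.0106 to 0.968) and IFI27L2 in 10 (0.00259 to 0.835); both kept a positive difference in all, as did the 6 other members with an unadjusted p under 0.05 wherever tested. The replicate block gave 1 member and 122 genes. Same-numbered clones deviated together only with correlations of 0.066, 0.015 and 0.019, the first being the highest of all pairs. Different-numbered clones had correlations of -0.071 to 0.062, and control 3 correlated better with knockout 2 (0.062) than with knockout 3. All were small, so the numbers were not taken to pair clones. Except where an alternative tests other genes or fewer arrays, the cause was not tested. Genes near background, such as MX1, are limited by signal over background.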
